A study of Mus musculus with 2 samples.

Results

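The genes described here are 10 transcription factors that pattern the embryonic neural tube from dorsal to ventral, followed here in glia of the postnatal mouse spinal cord: Pax3, Pax7, Gsx1, Zic1, Pax6, Irx3, Irx5, Nkx6-1, Nkx6-2 and Foxa2. They were taken by gene symbol, and all 10 were found among the 32285 genes listed. The data were single-cell counts from whole spinal cord of 4-day-old FVB mice, in 2 libraries, which the labels call SMA and Con. The SMA library came from mice of genotype mSmn-/-, hSMN22tg/0, a severe model of spinal muscular atrophy that has no intact mouse Smn and makes SMN from a human transgene. The Con library came from littermates of genotype mSmn+/-, hSMN22tg/0, which keep 1 intact mouse allele and carry the same human transgene. In each library the cords of several littermates had been pooled before dissociation with trypsin and collagenase, so the animals cannot be told apart and each group is 1 sample. No test of SMA against Con was therefore possible, and every interval given is a 95% interval that covers counting error only.

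In the embryo, Sonic hedgehog from the floor plate and BMP and Wnt signals from the roof plate divide the progenitors of the neural tube into bands along the dorsoventral axis. Each band is set by a combination of homeodomain, paired-box and related factors, several of which repress the factor of the neighbouring band. Astrocytes, oligodendrocyte precursors and ependymal cells arise from these bands, and glial cells can go on expressing the factor of their origin after birth.

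The members sit on several chromosomes of the mouse build GRCm38 (mm10) and are all protein-coding genes. Of the dorsal factors, Pax3 lies on the minus strand of chr1:78101267-78197134, Pax7 on the minus strand of chr4:139737062-139833528, Gsx1 on the plus strand of chr5:147188696-147190947 and Zic1 on the minus strand of chr9:91358058-91365810. Of the factors with broad or intermediate domains, Pax6 lies on the plus strand of chr2:105668900-105697364, Irx3 on the minus strand of chr8:91798525-91802067 and Irx5 on the plus strand of chr8:92357625-92376286, so both Irx genes belong to 1 cluster of Irx genes. Of the ventral factors, Nkx6-1 lies on the minus strand of chr5:101658139-101664996, Nkx6-2 on the minus strand of chr7:139579376-139582797 and Foxa2 on the minus strand of chr2:148042877-148046969.

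After filtering, 6787 cells of the SMA library and 8919 of the Con library were kept, with a median of 6109 and 6229 unique molecular identifiers (UMIs, each marking 1 captured RNA molecule) per cell. The libraries shared 8163 cell barcodes, and the SMA copies of these barcodes were left out, which removed 6509 cells of the SMA library that had passed the other filters. Of 10256 Con cells within the limits on genes and mitochondrial UMIs, 6567 carried a shared barcode and were not left out for it. Cells were clustered without the 10 members and given class names from marker genes, each with the ending -like. Levels are given in CPM, the UMIs of a gene summed over the cells of a class and scaled to 1000000 UMIs of all genes. Smn1 was at 48.2 CPM in the SMA cells and 43.8 CPM in the Con cells, and the sources used here do not say whether the counted 3′ tags lie in the altered part of the gene, so it is no check of the labels. Xist was at 1.51 CPM in the SMA cells and 528 CPM in the Con cells, so the mix of sexes and the genotype cannot be told apart. The classes followed most closely were astrocyte-like (1198 SMA and 1462 Con cells), ependymal-like (624 and 285), oligodendrocyte precursor cells or OPC-like (1956 and 1659), committed oligodendrocyte precursors or COP-like (306 and 658) and oligodendrocyte-like (293 and 624). In each of these classes every gene of the class's own marker list was detected. Detection alone does not set classes apart, since all 12 astrocyte markers were also detected in erythroid-like and microglia-like cells. Astrocyte markers summed to 12329 CPM (SMA) and 12191 CPM (Con) in astrocyte-like cells against 1350 and 1414 CPM in OPC-like cells. The names came from these same lists, so the sums are no separate check of them.

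The 10 factors fell into distinct patterns over the 11 classes that had at least 50 cells in each library. Microglia-like and erythroid-like cells, which arise outside the neural tube, served as the measure of free RNA, and no member exceeded 6.64 CPM in either of them. Between classes, a gene was counted where it had at least 20 UMIs in both classes together in each library, and called where the ratio was 2-fold or more in the same direction in both libraries. By this rule 7 of 8 members counted were higher in astrocyte-like than in microglia-like cells, beside 27.4% of all genes counted. The same held for 4 of 8 in OPC-like cells, beside 36.0%, and for 6 of 7 in ependymal-like cells, beside 27.6%. The plot of levels by class and library shows each member with its interval.

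**Figure D1:**
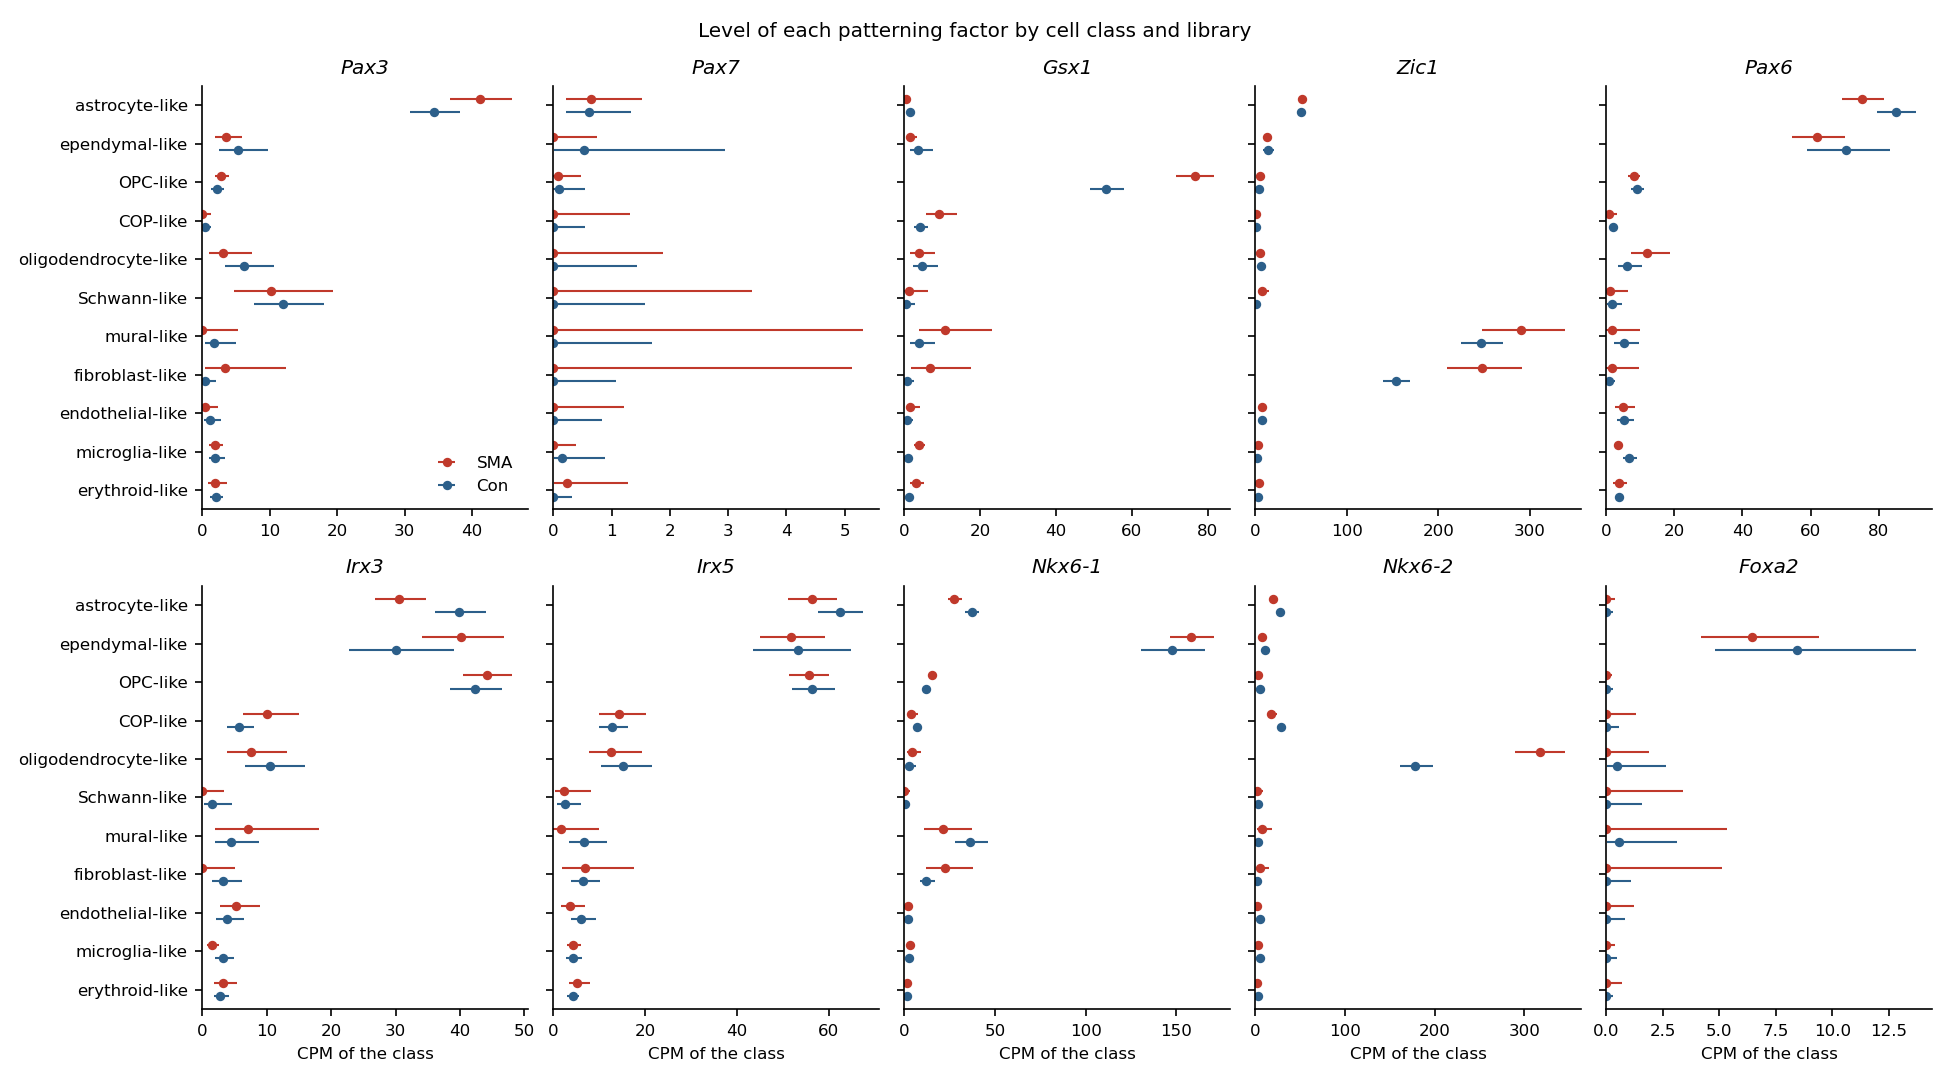
Level of each member (CPM on the x axes, which differ between panels) in 11 cell classes, with the SMA library in red and the Con library in blue. Points are the level of the class and lines its 95% Poisson interval, which covers counting error only. Gsx1 stands out in OPC-like cells (76.5 and 53.2 CPM), Nkx6-1 in ependymal-like cells (158 and 147 CPM), Nkx6-2 in oligodendrocyte-like cells and Zic1 in mural-like and fibroblast-like cells.

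Pax3, a paired-box factor of dorsal progenitors and neural crest, was at 41.2 CPM in SMA and 34.3 CPM in Con astrocyte-like cells. The next class was Schwann-like cells, which derive from neural crest, at 10.2 CPM (9 UMIs) and 12 CPM (23 UMIs), and the intervals of both classes did not meet in either library. In every other class compared Pax3 was at or below 6.21 CPM, and no neighbours in the order of these classes had intervals apart in both libraries. Its close relative Pax7 was almost absent from the data, with 7 UMIs in all SMA cells and 9 in all Con cells, of which 5 and 6 came from astrocyte-like cells.

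Gsx1, a homeobox factor of dorsal progenitors, was found mainly in OPC-like cells, at 76.5 CPM in SMA and 53.2 CPM in Con. In astrocyte-like cells it had 4 and 15 UMIs (0.520 and 1.53 CPM), beside 3.82 and 0.95 CPM in microglia-like cells, taken as the level of free RNA. COP-like cells, the next step toward oligodendrocytes, held 9.15 CPM in SMA and 4.05 CPM in Con. The log2 ratio of COP-like to OPC-like cells was -3.06 (-3.76 to -2.44) in SMA and -3.72 (-4.40 to -3.10) in Con.

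Zic1, a zinc-finger factor of the dorsal neural tube and of the meninges, reached 51.6 CPM in SMA and 50.4 CPM in Con astrocyte-like cells. Its highest levels lay outside the neural lineage: 291 and 247 CPM in mural-like cells and 248 and 154 CPM in fibroblast-like cells. The fibroblast-like class of the Con library held 431 cells of a cluster to which the SMA library gave 2 cells. In the other fibroblast-like cluster Zic1 was at 251 CPM in SMA and 282 CPM in Con, a log2 ratio of -0.17 (-0.45 to 0.11). Ependymal-like cells followed at 13.1 and 13.7 CPM, and OPC-like cells had 4.91 and 3.75 CPM.

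Pax6, a paired-box factor of a broad intermediate band of progenitors, was highest in astrocyte-like cells (75.2 CPM in SMA, 85.1 CPM in Con) and in ependymal-like cells (61.9 and 70.3 CPM). The intervals of these classes met in both libraries, and the next class, oligodendrocyte-like cells, had 11.9 and 6.21 CPM. OPC-like cells held 8.01 and 8.97 CPM.

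Irx3 and Irx5, Iroquois homeobox factors of the intermediate and dorsal neural tube, were shared by 3 classes. Irx5 was at 56.4 and 62.5 CPM in astrocyte-like, 55.7 and 56.5 CPM in OPC-like and 51.8 and 53.4 CPM in ependymal-like cells (SMA and Con), and no neighbours in this order had intervals that were apart in both libraries. Irx3 was at 44.2 and 42.3 CPM in OPC-like, 30.5 and 39.9 CPM in astrocyte-like and 40.1 and 30.1 CPM in ependymal-like cells, again without neighbours apart in both libraries. Below these came oligodendrocyte-like and COP-like cells, where neither factor exceeded 15.3 CPM.

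Nkx6-1, a homeobox factor of ventral progenitors, was at 158 CPM in SMA and 147 CPM in Con ependymal-like cells, apart from the 10 other classes compared. Astrocyte-like cells came next at 27.7 and 37.3 CPM, not apart from mural-like cells at 21.3 CPM (12 UMIs) and 36.0 CPM (64 UMIs). OPC-like cells had 15.4 and 12.2 CPM. The few neuron-like cells, 43 in SMA and 26 in Con and thus under the 50 needed for a comparison, held Nkx6-1 at 121 and 159 CPM.

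Nkx6-2, a related ventral factor that is also known for its part in myelination, was at 317 CPM in SMA and 179 CPM in Con oligodendrocyte-like cells. Next came astrocyte-like cells at 19.5 and 27.3 CPM and COP-like cells at 17.9 and 28.9 CPM, which were not apart. In 2 clusters that stayed unnamed, 1 of them led by Ddc, Cdk18 and Enpp6, it was at 59.9 and 64.1 CPM. OPC-like cells had 2.75 and 5.42 CPM beside 3.43 and 4.90 CPM in microglia-like cells, a log2 ratio of -0.31 (-1.11 to 0.49) in SMA and 0.14 (-0.52 to 0.83) in Con.

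Foxa2, a forkhead factor of the floor plate, had 33 UMIs in all SMA cells and 26 in all Con cells. Ependymal-like cells held 26 of them in SMA (6.44 CPM) and 16 in Con (8.45 CPM), and the other classes compared held none in SMA and 2 in Con. Astrocyte-like, OPC-like and COP-like cells held no UMI of it in either library. Against astrocyte-like cells, taken at a floor of 3 counts per library, Foxa2 was at least 16.5-fold higher in SMA and at least 27.6-fold higher in Con ependymal-like cells. Outside the compared classes, neuron-like cells had 7 and 6 UMIs (18.0 and 22.8 CPM).

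Shares of cells with a UMI were compared after each cell had been thinned to 1000 UMIs, which left out at most 1 shallower cell in each of the classes named here. After thinning, Nkx6-1 was found in 16.4% of SMA and 15.5% of Con ependymal-like cells, against 0.0956% and 0.231% of microglia-like cells. The share for Pax6 in astrocyte-like cells was 7.01% and 7.52%, against 0.0956% and 0.462% of microglia-like cells. For Gsx1 in OPC-like cells it was 6.55% and 5.25%, against 0.287% and 0.115%. Without thinning, Pax6 had a UMI in 412 of 1198 SMA and 581 of 1462 Con astrocyte-like cells. Median depth was 5919 and 6064.5 UMIs in astrocyte-like cells and 6871.5 and 7103.5 in microglia-like cells (SMA and Con).

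Astrocyte-like and OPC-like cells are both glia of the spinal cord parenchyma, and the comparison between them asked which factors separate them. Of the 8 members counted, 4 were higher in astrocyte-like cells, namely Pax3, Zic1, Pax6 and Nkx6-2, and 1 was lower, namely Gsx1. Over all 13291 genes counted, 11.1% were higher and 18.8% lower by the same rule. On the log2 scale Pax3 differed by 3.90 (3.38 to 4.47) in SMA and 3.98 (3.36 to 4.68) in Con. Pax6 differed by 3.23 (2.91 to 3.56) and 3.25 (2.93 to 3.57), and Gsx1 by -7.20 (-9.08 to -5.84) and -5.12 (-5.97 to -4.38). The Gsx1 values rest on 4 and 15 UMIs in astrocyte-like cells, in SMA below the level in microglia-like cells, and became -4.12 and -3.65 with no upper limit on genes. Irx5 differed by 0.02 (-0.16 to 0.20) and 0.15 (-0.02 to 0.31), within counting error of equal levels. Nkx6-1 was 2-fold higher in astrocyte-like cells in Con alone, by 1.61 (1.31 to 1.91) against 0.84 (0.55 to 1.14) in SMA.

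Of the other patterning genes, 5 of the 6 listed dorsal factors that could be counted (14 were listed) were higher in astrocyte-like than in OPC-like cells, as Pax3 and Zic1 were, and 1 was lower. Msx1, a factor of the roof plate, had 13.8 and 13.6 CPM in astrocyte-like and 2.67 and 1.97 CPM in OPC-like cells (SMA and Con). Its relative Msx2 had 7.15 and 10.9 CPM against 0.344 and 0.296 CPM, and Zic4 had 6.24 and 5.51 CPM against 0.430 and 0.197 CPM. Among 7 other intermediate factors, 3 of 5 counted were higher and 1 was lower. Dbx2, a homeobox factor of intermediate progenitors, led them at 436 and 445 CPM against 57.3 and 52.3 CPM, and the homeobox factor Gbx2 had 71.2 and 58.6 CPM against 3.01 and 2.07 CPM. The one that was lower was Irx1, at 17.9 and 18.3 CPM against 60.9 and 67.7 CPM, so Irx1 did not share the even spread of Irx5 over both classes. The zinc-finger factor Sp8 had 15.5 and 16.1 CPM against 0.344 and 1.08 CPM.

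Among 9 other ventral factors, none of 4 counted was higher and 2 were lower. These were Olig2, which drives oligodendrocyte fate, at 34.6 and 48.4 CPM in astrocyte-like and 246 and 270 CPM in OPC-like cells, and Nkx2-2, its ventral neighbour in the neural tube, at 19.7 and 26.3 CPM against 109 and 135 CPM. The secreted floor plate proteins Spon1 (122 and 133 CPM against 92.7 and 101 CPM) and Ntn1 (36.5 and 33.3 CPM against 41.6 and 41.8 CPM) were less than 2-fold apart. In the Sonic hedgehog pathway, 6 of 10 genes counted were higher and 1 was lower. Among those higher were its receptor Ptch1, at 127 and 141 CPM against 42.6 and 34.5 CPM, and the co-receptor Boc, at 27.7 and 24.5 CPM against 6.28 and 5.13 CPM. The one that was lower was the co-receptor Cdon, at 0.520 and 0.306 CPM against 3.01 and 2.37 CPM. The signal transducer Smo (35.3 and 42.7 CPM against 15.3 and 24.7 CPM) and the co-receptor Gas1 (37.5 and 44.0 CPM against 29.4 and 30.6 CPM) were not called.

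Most members were lower in COP-like than in OPC-like cells. Of 8 counted, 6 were lower (Gsx1, Zic1, Pax6, Irx3, Irx5, and Pax3 with 0 and 2 UMIs left in COP-like cells) and 1 was higher (Nkx6-2), beside 12.8% lower and 3.60% higher of all genes counted. In OPC-like against microglia-like cells, none of Pax3, Zic1, Pax6 and Nkx6-2 was called by the same rule, and the part of free RNA in their OPC-like values was not tested. Irx3 differed by -2.14 (-2.81 to -1.54) in SMA and -2.89 (-3.47 to -2.36) in Con on the log2 scale, while Nkx6-2 was higher by 2.70 (1.99 to 3.41) and 2.41 (1.96 to 2.88). Nkx6-1 passed 2-fold in the SMA library alone. In oligodendrocyte-like against COP-like cells Nkx6-2 was higher again, by 4.15 (3.69 to 4.65) in SMA and 2.63 (2.36 to 2.91) in Con, and Pax6 was the only other member called (19 and 13 UMIs in oligodendrocyte-like cells), beside 6.14% of all genes higher. Pax6 was at 11.9 and 6.21 CPM there, beside 3.43 and 6.64 CPM in microglia-like cells, and the part of free RNA in this call was not tested.

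Ependymal-like cells, which line the central canal, differed from astrocyte-like cells in 4 of 7 members counted. Nkx6-1 was higher, by 2.52 (2.29 to 2.75) in SMA and 1.98 (1.75 to 2.21) in Con on the log2 scale, beside 14.4% of all genes. Pax3, Zic1 and Nkx6-2 were lower, beside 11.2% of all genes. Pax6 differed by -0.28 in each library and Irx5 by -0.12 and -0.23, all short of 2-fold.

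Within astrocyte-like cells the dorsal and the ventral factors were not spread evenly. The class was divided into 9 sub-clusters, again without the members, and sub-clusters 1 and 2 were the largest in both libraries. Sub-cluster 1 (405 SMA and 431 Con cells) was led by Wnt3, Cyp4f15 and Creg2, and sub-cluster 2 (230 and 351 cells) by the early-response genes Rgs2, Dusp1 and Nr4a2 together with haemoglobin genes. Pax3 was at 92.5 CPM in SMA and 101 CPM in Con cells of sub-cluster 1, against 10.0 and 9.18 CPM in sub-cluster 2. Zic1 was at 126 and 162 CPM against 4.29 and 5.31 CPM. The ventral pair went the other way in both libraries, with Nkx6-1 at 4.38 and 1.66 CPM in sub-cluster 1 against 63.6 and 59.9 CPM in sub-cluster 2. Nkx6-2 was at 4.38 and 9.10 CPM against 47.9 and 46.8 CPM.

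Of 7 members counted between these sub-clusters, 2 were thus higher in sub-cluster 1 and 2 lower, beside 0.900% higher and 1.06% lower of all 9664 genes counted. Pax6, Irx3 and Irx5 were less than 2-fold apart. Pax6 was at 85.4 and 82.8 CPM in sub-cluster 1 and at 50.7 and 76.8 CPM in sub-cluster 2, a log2 difference of 0.75 (0.35 to 1.17) in SMA and 0.11 (-0.20 to 0.42) in Con. Irx3 differed by 0.11 and -0.30 with intervals that held 0. The sub-clusters were formed from other genes of the same cells, so these values describe how the members vary with the rest of the transcriptome.

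**Figure D2:**
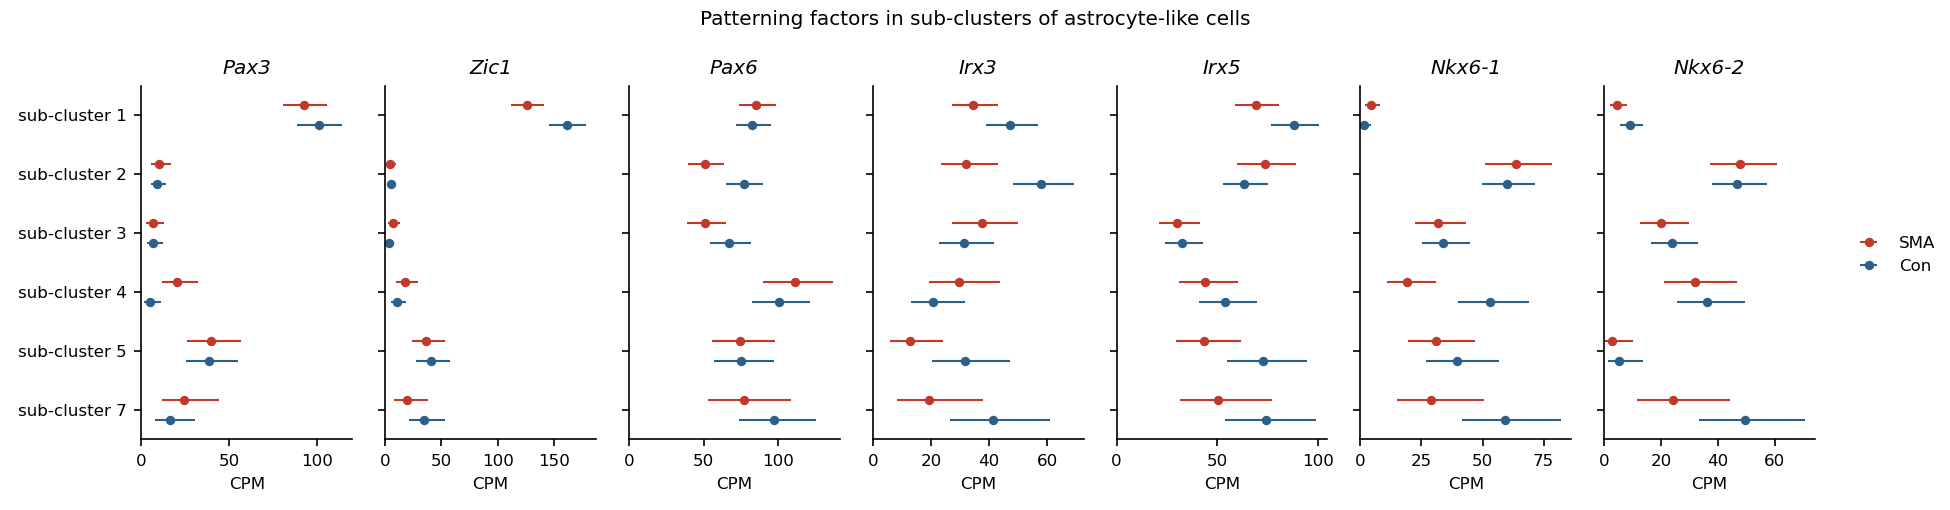
Level of 7 members (CPM on the x axes, which differ between panels) in the 6 sub-clusters of astrocyte-like cells that had at least 50 cells in each library, SMA in red and Con in blue, with 95% Poisson intervals for counting error. Pax3 and Zic1 peak in sub-cluster 1, where Nkx6-1 is at 4.38 and 1.66 CPM, and Pax6 is spread over all 6.

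In sub-cluster 3 (196 SMA and 231 Con cells, led by Kdelr3, Gpr37 and Snhg20) Pax3 was at 6.66 and 6.79 CPM and Nkx6-1 at 31.6 and 34.0 CPM. Sub-cluster 5, led by replication genes, held Pax3 at 39.5 and 38.3 CPM and Nkx6-1 at 31.0 and 39.6 CPM, while Nkx6-2 had 2.82 and 5.28 CPM. Among the other factors, Gbx2 (161 and 130 CPM against 28.6 and 29.9 CPM), Irx1 (36.8 and 50.1 CPM against 2.86 and 4.35 CPM) and Irx2 (31.1 and 27.3 CPM against 4.29 and 5.79 CPM) were 2-fold or more higher in sub-cluster 1. Sp8 was lower there, at 6.13 and 3.72 CPM against 27.2 and 28.0 CPM. None of 9 genes of the Sonic hedgehog pathway was 2-fold apart between the sub-clusters. Reln, a secreted glycoprotein used to mark astrocytes by position, was at 53.0 and 50.5 CPM against 85.7 and 98.0 CPM. Sub-cluster 8 was led by microglial genes (Fcrls, C1qa) and sub-cluster 9 held 40 SMA cells and 1 Con cell, and sub-cluster 6 held 39 SMA and 116 Con cells, so these are not compared.

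The same factors were then followed in single cells, pair by pair. For each pair, the number of cells with a UMI of both was set against the number expected if the genes fell on cells independently of each other, summed over 10 bins of cell depth. All UMIs of a cell were used, since after thinning to 1000 UMIs only 1 pair in astrocyte-like cells had 5 expected cells in each library. Pax3 and Zic1 were found together in 84 SMA astrocyte-like cells, where 43.7 were expected, and in 129 Con cells, where 47.7 were expected. Pax3 and Nkx6-1 were together in 2 cells of each library, where 29.1 (SMA) and 37.2 (Con) were expected. Dorsal and ventral factors were thus seldom seen in the same cell. Zic1 met Nkx6-1 in 3 SMA cells against 30.5 expected and in 7 Con cells against 45.2. It met Nkx6-2 in 1 cell against 16.6 and in 5 cells against 25.8.

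The related ventral factors Nkx6-1 and Nkx6-2 were also seldom found together. They shared 5 SMA cells, where 12.4 were expected, and 6 Con cells, where 25.3 were expected, a ratio of 0.40 (0.13 to 0.94) and 0.24 (0.09 to 0.52). By sub-cluster, both were at their SMA peak in sub-cluster 2 (63.6 and 47.9 CPM). Among the sub-clusters compared, in Con sub-cluster 2 (59.9 and 46.8 CPM), sub-cluster 4 (53.1 and 36.0 CPM) and sub-cluster 7 (59.4 and 49.5 CPM) had intervals that met for both genes. Of the 21 pairs with at least 5 expected cells in each library, 5 had an interval of the ratio below 1 in both libraries (each of Pax3 and Zic1 with each Nkx6 factor, and the Nkx6 factors with each other) and 1 had it above 1 (Pax3 with Zic1). No share over all pairs of genes is given beside these counts, so they do not show whether such pairs are particular to the members. Every pair with Pax6, Irx3 or Irx5 had an interval that held 1 in at least 1 library. Pax6 and Nkx6-1, for example, shared 49 SMA cells against 58.6 expected and 107 Con cells against 110.

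In OPC-like cells the 6 pairs that stood out in astrocyte-like cells could not be measured, since each had under 5 expected cells in each library. Of 18 other pairs with at least 5 expected cells in each library, none had an interval below or above 1 in both. Gsx1 and Nkx6-1, a dorsal and a ventral factor, shared 51 SMA cells against 49.7 expected and 30 Con cells against 31.1. Pax3 and Zic1 shared 6 SMA cells, where 0.991 were expected, and 5 Con cells, where 0.5 were expected. Pax3 and Nkx6-1 shared none in SMA and 1 in Con, where 2.83 and 1.43 were expected, and Zic1 and Nkx6-1 shared 1 and 2, where 4.00 and 2.71 were expected.

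**Figure D3:**
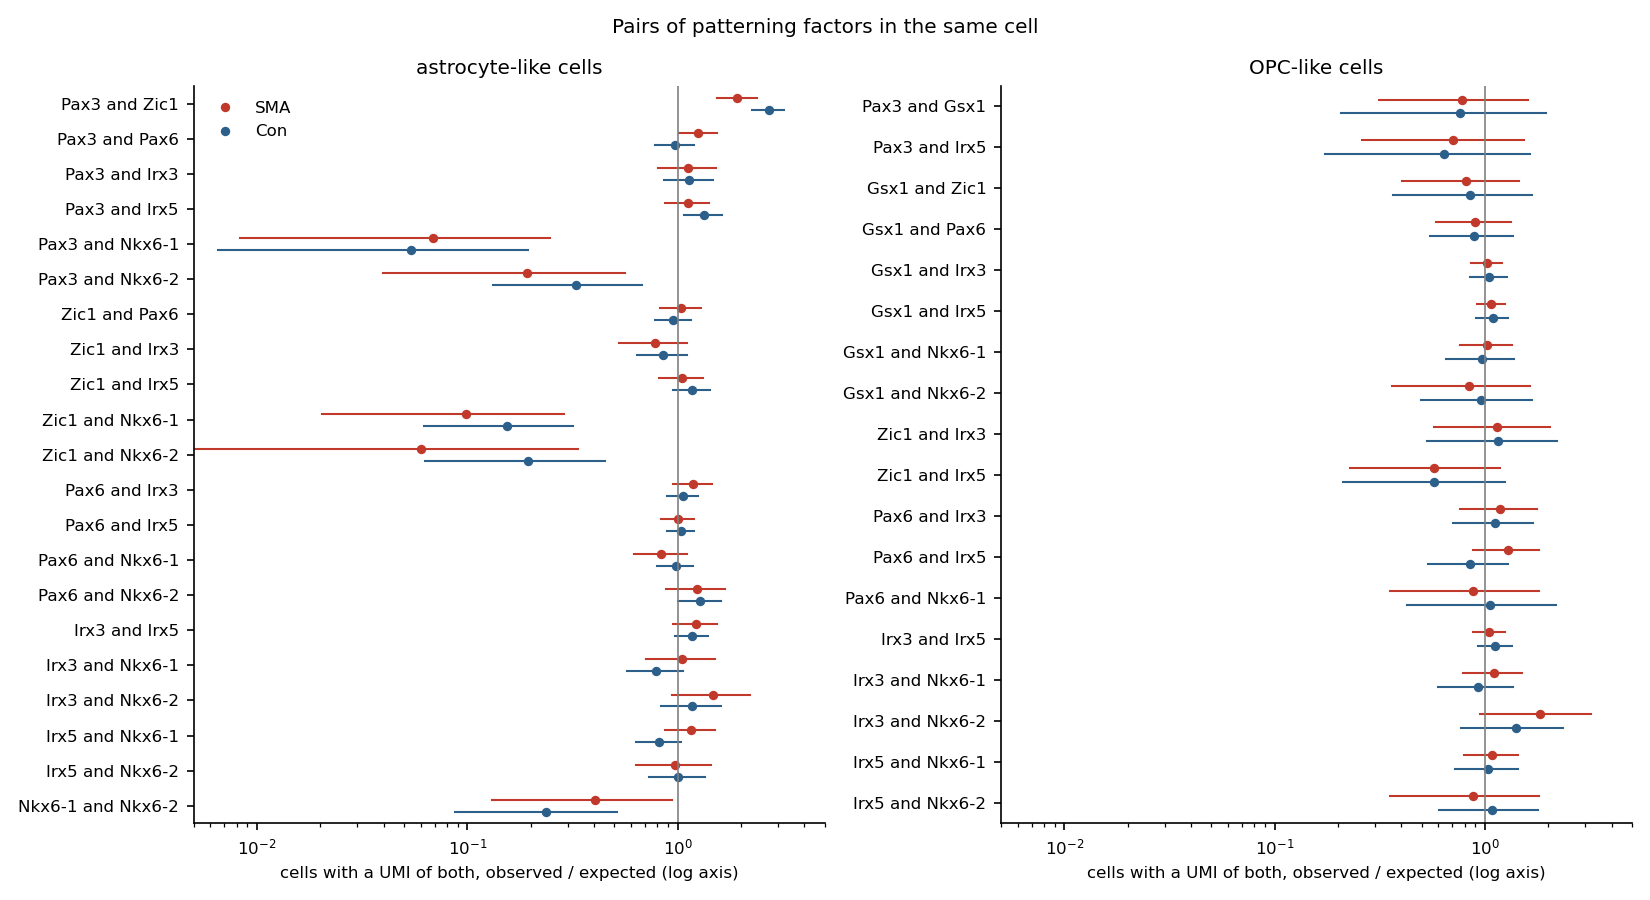
Cells with a UMI of both members of a pair, observed over expected (log axis), in astrocyte-like cells (left) and OPC-like cells (right), SMA in red and Con in blue, for pairs with at least 5 expected cells in each library. Lines are 95% Poisson intervals of the observed count, cut at the left edge, and the grey line is 1. In astrocyte-like cells 5 pairs with Nkx6-1 or Nkx6-2 lie below 1 in both libraries and the pair of Pax3 and Zic1 above it.

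The genes that followed each member most closely within astrocyte-like cells were found by comparing cells with and without a UMI of it. With Pax3 went Zic1, Wnt3, Gbx2, Irx1 and Ptn, and Wnt3 was at 23.9 CPM in SMA cells with Pax3 against 6.86 CPM in those without (41.7 and 8.18 CPM in Con). With Zic1 went Zic4, Creg2, Wnt3, Irx1 and Irx2, and Zic4 was at 20.0 against 2.90 CPM in SMA and 26.7 against 0.750 CPM in Con. Zic4 is the neighbour of Zic1 in the genome, in a head-to-head pair. With Nkx6-1 went Cxcl10, Gpr37, Hspb8, Meg3 and Sulf2, and Gpr37 was at 108 against 38.3 CPM in SMA and 81.1 against 42.5 CPM in Con. With Pax6 went Aplnr, Cidea, Hspb1, Trh and Igfbp5, and Aplnr was at 21.8 against 7.27 CPM and 69.7 against 13.8 CPM. With Irx5 went Zfp605, the early-response genes Egr1, Btg2 and Fos and the Notch target Hes1. With Irx3 went the early-response genes Nr4a1, Ier2 and Dusp1, and Nkx6-2, which was at 34.6 against 16.2 CPM in SMA and 43.1 against 22.4 CPM in Con. Cells with a UMI of Pax6, Irx3, Irx5 or Nkx6-1 were deeper at the median than those without in both libraries. In Con the medians were 6991 against 5673 UMIs for Pax6 and 6553 against 5869 UMIs for Irx5. The part of depth in the values of these members was not tested.

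Ependymal-like cells also differed among themselves in these factors. Sub-cluster 2 (192 SMA and 102 Con cells) was led by Pdyn, Padi2 and Vtn and held 24 of the 26 SMA UMIs and 13 of the 16 Con UMIs of Foxa2, at 20.5 and 20.1 CPM. It all but lacked the factors of intermediate bands. Pax6 was at 2.56 and 1.54 CPM there against 104 and 133 CPM in sub-cluster 1 (289 and 109 cells), whose leading genes were those of haemoglobin. Irx3 was at 3.42 and 0 CPM against 59.6 and 56.0 CPM, and Irx5 at 3.42 and 3.09 CPM against 69.6 and 107 CPM. Nkx6-1 was present in both, at 141 and 137 CPM in sub-cluster 2 and at 203 and 189 CPM in sub-cluster 1. Of 4 members counted, 3 were thus lower in sub-cluster 2 in both libraries, beside 5.23% of all 6973 genes counted, and none was higher, beside 5.52%. Foxa2 itself had too few UMIs in Con to be counted.

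Other genes of the ventral midline lay in the same sub-cluster. Foxa1, a forkhead relative of Foxa2, was at 63.2 CPM in SMA and 49.4 CPM in Con there against 0.585 and 0 CPM in sub-cluster 1. Ntn1, a guidance cue of the floor plate, was at 566 and 491 CPM against 67.2 and 68.1 CPM. All 3 of the listed ventral factors that could be counted were higher in sub-cluster 2, and Ptch1 was lower, at 12.8 and 29.3 CPM against 91.8 and 95.3 CPM.

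A smaller sub-cluster, with markers of both ependymal cells and astrocytes, carried Pax3 and Zic1. Sub-cluster 4 (37 SMA and 19 Con cells, led by Gdf10, Gria1 and Pla2g7) had Pax3 at 41.8 and 64.6 CPM and Zic1 at 113 and 180 CPM, while in sub-clusters 1 and 2 Zic1 did not exceed 5.13 CPM. Msx1, a roof plate factor, was at 51.5 and 223 CPM there. Nkx6-1 was at 106 and 101 CPM in the same sub-cluster. The leading genes include Pla2g7 and Cldn10, which also lead the largest astrocyte-like cluster. The 12 astrocyte markers, all detected, summed to 6492 and 5545 CPM in sub-cluster 4 against 1540 and 1530 CPM in sub-cluster 1, and the 11 ependymal markers to 2305 and 2083 CPM against 6002 and 6052 CPM. The part of astrocyte RNA in the values of sub-cluster 4 was not tested. No UMI of Gsx1 or Pax7 was found in it. Gsx1 had 5 UMIs in SMA and 6 in Con (16.9 and 40.7 CPM) in sub-cluster 5 (35 and 16 cells), which was led by Nxph1, Brinp3 and Pcdh11x and where the 8 OPC markers summed to 2172 and 2431 CPM. Pax3 and Zic1 were found together in 6 SMA ependymal-like cells, where 0.688 were expected, and in 4 Con cells, where 0.352 were expected. With under 50 cells of the sub-cluster in each library these levels are given as values without comparison.

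**Figure D4:**
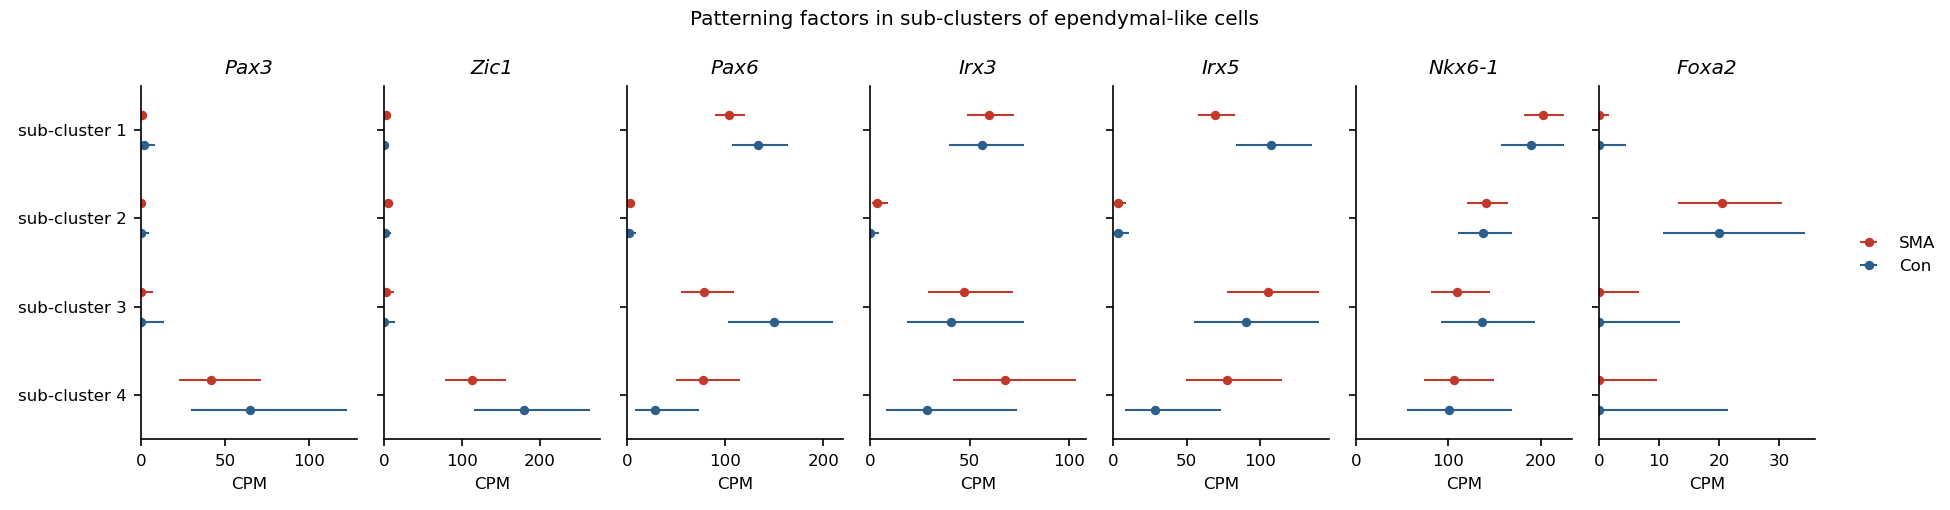
Level of 7 members (CPM on the x axes, which differ between panels) in sub-clusters 1 to 4 of ependymal-like cells, SMA in red and Con in blue, with 95% Poisson intervals for counting error. Foxa2 is found in sub-cluster 2, where Pax6, Irx3 and Irx5 are at or under 3.42 CPM, and Pax3 and Zic1 in sub-cluster 4 (37 and 19 cells).

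In single ependymal-like cells, Pax6, Irx3 and Irx5 went together. Irx3 and Irx5 shared 62 SMA cells against 37.9 expected and 25 Con cells against 11.6, and Pax6 and Irx5 shared 67 against 46.0 and 36 against 19.2. Foxa2 and Pax6, by contrast, shared no cell in either library, where 6.33 (SMA) and 3.67 (Con) were expected, and in Con the interval of the ratio held 1. Nkx6-1 met Foxa2 in 13 SMA cells against 14.8 expected and in 8 Con cells against 8.82, with intervals that held 1.

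The comparison of SMA with Con asked whether the members differed with genotype in each glial class. In astrocyte-like cells none of the 7 members counted was 2-fold or more apart, beside 2.78% of all genes counted. The median log2 ratio of the 7 was -0.18, against -0.06 for all genes. Nkx6-1 was at 27.7 CPM in SMA and 37.3 CPM in Con, a log2 ratio of -0.43 (-0.68 to -0.18), and Nkx6-2 at 19.5 and 27.3 CPM, a ratio of -0.48 (-0.78 to -0.19). Irx3 had a ratio of -0.39 (-0.63 to -0.15) and Pax3 of 0.26 (0.04 to 0.49). For Zic1 it was 0.03 (-0.16 to 0.23). With barcodes shared between the libraries left out of both, which kept 1345 SMA and 300 Con astrocyte-like cells, the ratio turned to -0.29 (-0.75 to 0.19) for Pax3, 0.17 (-0.45 to 0.86) for Nkx6-1 and 0.30 (-0.49 to 1.21) for Nkx6-2.

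The make-up of the class differed between the libraries as well. Sub-cluster 1, rich in Pax3, was 33.8% of SMA and 29.5% of Con astrocyte-like cells, and sub-cluster 2, rich in Nkx6-1, was 19.2% and 24.0%. Sub-clusters with under 50 cells in a library differed more. Sub-cluster 6, with 39 SMA and 116 Con cells, had Nkx6-1 at 26.1 CPM (10 UMIs) and 46.7 CPM (56 UMIs), and sub-cluster 9, with 40 SMA cells and 1 Con cell, had Zic1 at 84.5 CPM and Nkx6-1 at 9.94 CPM (2 UMIs) in SMA. Within sub-cluster 2 the log2 ratio of SMA to Con was 0.09 (-0.32 to 0.49) for Nkx6-1 and 0.03 (-0.44 to 0.50) for Nkx6-2. Within sub-cluster 1 it was -0.13 (-0.40 to 0.14) for Pax3 and -0.36 (-0.58 to -0.14) for Zic1. In sub-cluster 4 Nkx6-1 was lower in SMA, with 16 UMIs against 56 and a ratio of -1.48 (-2.38 to -0.66), and Pax3 was higher, with 17 UMIs against 5 and a ratio of 2.09 (0.59 to 3.88). Nkx6-1 had a ratio of -1.04 (-2.12 to -0.06) in sub-cluster 7 as well. Irx3 was lower in SMA within sub-cluster 1, at -0.45 (-0.88 to -0.02), within sub-cluster 2, at -0.85 (-1.38 to -0.34), and within sub-cluster 5, at -1.32 (-2.61 to -0.17), while the ratio was 0.26 (-0.36 to 0.89) in sub-cluster 3, 0.51 (-0.38 to 1.40) in sub-cluster 4 and -1.10 (-2.46 to 0.10) in sub-cluster 7. Pax6 had a ratio of -0.60 (-1.02 to -0.19) in sub-cluster 2, and Irx5 of -0.35 (-0.65 to -0.04) in sub-cluster 1 and -0.73 (-1.42 to -0.07) in sub-cluster 5. The erythroid marker genes, a measure of free haemoglobin RNA, summed to 1654 CPM in SMA and 8837 CPM in Con astrocyte-like cells, and their part in these ratios was not tested.

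**Figure D5:**
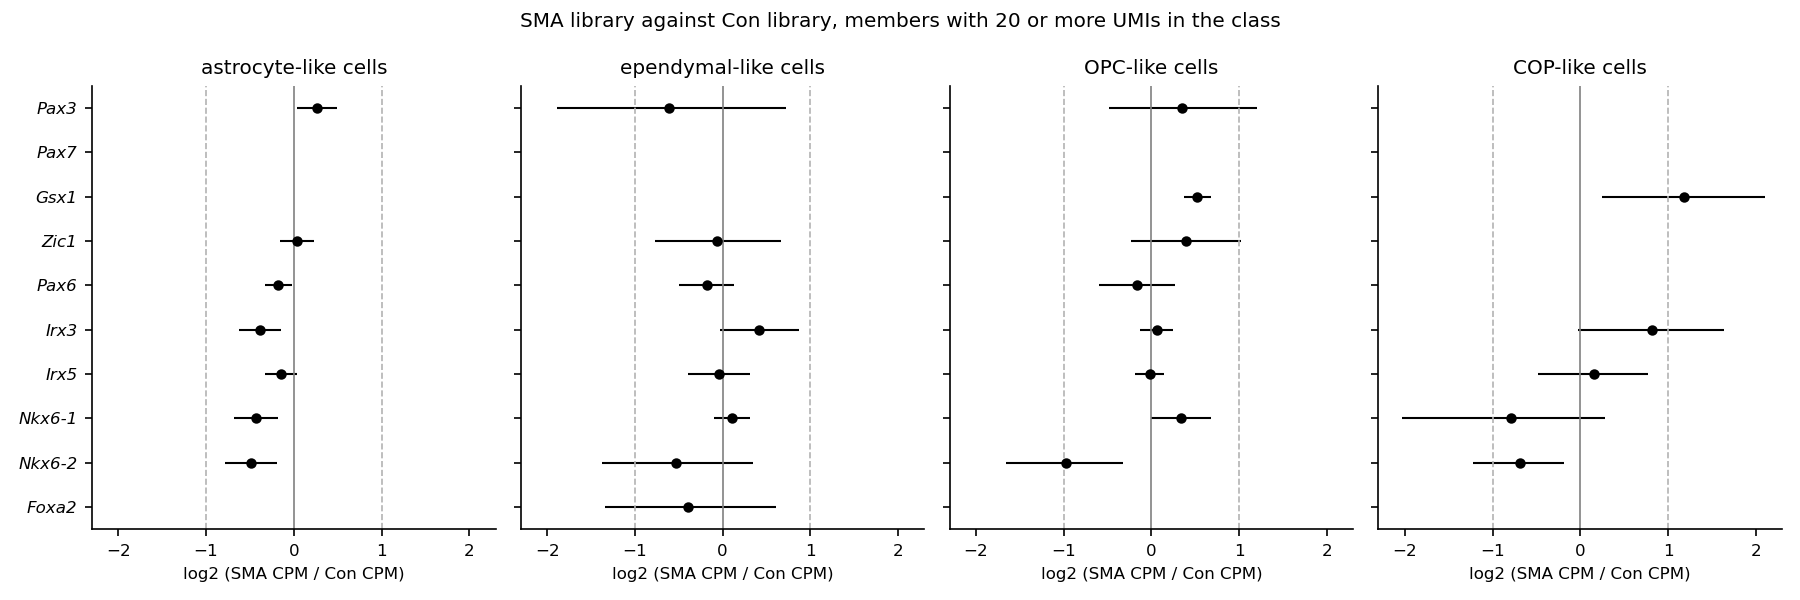
Log2 ratio of the SMA to the Con level (x axis) for members with 20 or more UMIs in astrocyte-like, ependymal-like, OPC-like and COP-like cells. Points are ratios and lines 95% intervals for counting error with 1 library per group, and the dashed lines mark 2-fold. Gsx1 in COP-like cells (1.18) is the only point past 2-fold.

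In OPC-like cells none of 8 members counted was 2-fold apart, beside 2.16% of all genes. Gsx1 had 889 UMIs (76.5 CPM) in SMA and 540 UMIs (53.2 CPM) in Con, a log2 ratio of 0.52 (0.37 to 0.68). Within the 6 OPC-like clusters, it was higher in SMA beyond counting error in 3, by 0.60 in the largest (0.36 to 0.83). In the other three the ratio was 0.18, -0.25 and -0.25, with intervals that held 0. In microglia-like cells, it had 29 UMIs (3.82 CPM) in SMA and 6 UMIs (0.95 CPM) in Con, and the part of free RNA in the OPC-like values was not tested. With shared barcodes left out of both libraries the ratio in OPC-like cells was 0.30. Irx5 differed by -0.02 (-0.18 to 0.14) and Irx3 by 0.06 (-0.13 to 0.25). Nkx6-2 had 32 and 55 UMIs and a ratio of -0.98 (-1.65 to -0.32), just short of 2-fold.

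In COP-like cells Gsx1 was the only one of 5 members counted past 2-fold, with 21 UMIs in SMA and 22 in Con, beside 3.22% of all genes. Its log2 ratio was 1.18 (0.24 to 2.11), and it became -0.26 (-1.74 to 1.04) with the mitochondrial limit raised to 20%. Nkx6-2 was at 17.9 and 28.9 CPM, a ratio of -0.69 (-1.23 to -0.19). In ependymal-like cells none of 8 members was 2-fold apart, beside 3.12% of all genes. Nkx6-1 had a ratio of 0.10 (-0.10 to 0.31), Pax6 of -0.18 (-0.49 to 0.13), Irx5 of -0.04 (-0.39 to 0.31) and Foxa2 of -0.39 (-1.35 to 0.60). Within ependymal-like sub-cluster 1 the ratio was -0.63 (-1.06 to -0.18) for Irx5 and -1.46 (-2.58 to -0.35) for Nkx6-2, on 15 SMA and 16 Con UMIs. Intervals there held 0 for Pax6 (-0.36), Irx3 (0.09) and Nkx6-1 (0.10). In the larger ependymal-like cluster (385 SMA and 151 Con cells) Pax6 had a ratio of -0.41 (-0.73 to -0.09), and in the smaller one of 0.88 (-0.81 to 2.96).

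Nkx6-2 in oligodendrocyte-like cells had 504 UMIs in SMA and 374 in Con, a log2 ratio of 0.83 (0.63 to 1.02). The class joins a deep cluster of 61 SMA and 48 Con cells with a shallow one of 232 and 576 cells. Within the deep cluster Nkx6-2 was at 524 CPM in SMA and 485 CPM in Con, a ratio of 0.11 (-0.11 to 0.33), and within the shallow one at 65.5 and 66.5 CPM, a ratio of -0.02 (-0.55 to 0.49). The deep cluster was 61 of 293 SMA cells and 48 of 624 Con cells of the class.

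In the lists of related genes, none of the counted genes was 2-fold apart between SMA and Con in astrocyte-like, OPC-like or ependymal-like cells. The median log2 ratio in astrocyte-like cells was -0.15 over 6 other dorsal factors, -0.03 over 5 other intermediate factors, -0.27 over 4 other ventral factors and -0.16 over 9 genes of the Sonic hedgehog pathway. Olig2 was at 34.6 and 48.4 CPM, a ratio of -0.49 (-0.71 to -0.27). Reln was at 84.5 and 124 CPM, a ratio of -0.56 (-0.70 to -0.42), and Gfap, an intermediate filament of astrocytes, at 1265 and 1620 CPM, a ratio of -0.36 (-0.39 to -0.32). In ependymal-like cells Sp8 and Msx1 came nearest to 2-fold, with ratios of 0.98 (0.15 to 1.90) and -0.94 (-1.45 to -0.43).

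Over the 22 points given by 11 classes in 2 libraries, Irx3 and Irx5 had each other as the most similar gene, with Pearson's r of 0.96 on log2(CPM + 10). Zic1 was closest to Stbd1 (0.96) and Zic4 (0.96), Pax6 to Mlc1 (0.97), an astrocyte membrane protein, and Gsx1 to Zdhhc22 (0.98). Nkx6-1 was closest to Atp2b4 (0.98) and Nkx6-2 to Hhip (0.94), a hedgehog-binding protein. Pax3 was closest to Paqr6 (0.96). These correlations describe classes that share libraries, and carry no test.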

How the data were processed

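The authors deposited raw counts, given as UMIs per gene and cell barcode, which are the output of Cell Ranger (version 4.0.0 per the file headers) for droplet libraries of 3′ ends, and the submitters' processing notes name the build mm10 and Seurat 3.2.2. Barcodes had been called by the authors. Group names came from the labels.

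Cells with 200 to 4000 genes and under 10% mitochondrial UMIs were kept, SMA barcodes that also occurred in Con were left out, and a Con cluster of 1337 cells with over 30% ribosomal-protein UMIs was removed. Doublets were limited only by the upper bound on genes. On log-transformed counts, each cell scaled to 10000, 2000 variable genes, 30 principal components and 20 neighbours gave a Louvain clustering at resolution 1 (Python 3.11.15, scikit-learn 1.9.0, python-igraph 0.11.9). Members, listed genes, mitochondrial and ribosomal genes were kept out of it. A cluster took the class with most markers among its 60 leading genes or, where these held none, with most markers raised in it, a rule set with the data in view. The latter named 2 OPC-like clusters and 1 astrocyte-like cluster led by cell-division genes. Of 33 clusters, 2 stayed unnamed, 1 shallow with no marker among its 10 leading genes and 1 in which another class led those genes. Names rebuilt in this way may differ from those of the study.

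Levels, from class sums of UMIs, carry exact Poisson intervals, shares Clopper-Pearson intervals and ratios exact conditional intervals, all at 95% (scipy 1.17.1). A class needed 50 cells in each library, a member 20 UMIs, a ratio 2-fold, and a count of 0 was given a floor of 3 counts. Of all barcodes, 26921 in SMA and 25419 in Con, the totals were 85872075 and 97894084 UMIs. All members were described over the classes compared, with the most similar genes over classes. Of each list, the 4 genes with most UMIs in astrocyte-like cells were to be named, and other genes in the text (Irx2, Foxa1, and the listed genes of sub-clusters and of SMA against Con) were chosen after their values were seen. Within astrocyte-like cells, up to 5 genes were named per member with at least 100 cells in each library. Some genes these rules name are not reported here. Members, lists and comparisons were chosen with earlier results of these data known. The counting steps were tested on simulated data. Positions came from GENCODE M21 by gene identifier, which matched 99.6% of identifiers.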

Additional observations from a re-analysis of the deposited data

Results flagged for a closer look

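Nkx6-2 was the 1 member whose SMA to Con ratio had intervals off 0 in opposite directions in different classes. The log2 ratio was 0.83 in oligodendrocyte-like cells, against -0.69 in COP-like, -0.98 in OPC-like, -0.48 in astrocyte-like and -1.84 in endothelial-like cells, the last on 4 SMA and 21 Con UMIs. In microglia-like cells, the measure of free RNA, Nkx6-2 was at 3.43 and 4.90 CPM, beside 2.75 and 5.42 CPM in OPC-like and 1.62 and 5.81 CPM in endothelial-like cells, and the part of free RNA in these ratios was not tested. The difference between classes was not tested, since each group is 1 library. Within the deep and the shallow cluster of oligodendrocyte-like cells the ratio was 0.11 and -0.02. In astrocyte-like cells it turned to 0.30 without the barcodes that the libraries share.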

How the results depend on the processing

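No paired analysis was possible because each group is 1 library, and no library could be left out. With 0 members 2-fold apart between SMA and Con in astrocyte-like cells as reported, the count became 1 (Gsx1) under a mitochondrial limit of 20%. In OPC-like cells, 0 became 1 (Nkx6-2) without shared barcodes in either library, at clustering resolution 2 and in cells of at least 5000 UMIs. In COP-like cells, 1 became 2 with shared barcodes kept, 0 with no upper limit on genes and 0 with at least 50 UMIs required, and the 1 was Nkx6-1 in place of Gsx1 under the limit of 20%. In ependymal-like cells, 0 became 1 (Pax3) with equal weight per cell. The count of 4 members higher in astrocyte-like than in OPC-like cells was 3 without shared barcodes in either library and 4 under its other alternatives. The counts of 4 between astrocyte-like and 3 between ependymal-like sub-clusters stayed at 4 and 3 in deep cells and with equal weights, alternatives chosen after seeing the data. Of 239 alternative SMA to Con ratios, 229 kept to the reported counting interval, 6 moved beyond it and 4 changed sign. Those that changed sign were Pax3 (-0.29), Nkx6-1 (0.17) and Nkx6-2 (0.30) in astrocyte-like cells without shared barcodes, and Gsx1 in COP-like cells (-0.26) under the limit of 20%. All 6 that moved also came without shared barcodes in either library, where only 6 other ratios kept to the interval. Of 128 alternative log2 ratios of astrocyte-like to OPC-like cells, 19 moved beyond the reported interval, 9 of them without shared barcodes in either library, and for Gsx1 they reached -4.12 in SMA and -3.65 in Con with no upper limit on genes. The cause was not tested. Without shared barcodes in either library, COP-like and ependymal-like cells of Con numbered 21 and 29 and gave no value. Of 160 alternative shares of cells, 105 moved beyond the reported interval and 55 did not. Counting precision is limited by the 150 to 834 UMIs behind each of the 7 members counted in astrocyte-like cells and by 21 and 22 UMIs for Gsx1 in COP-like and 26 and 16 for Foxa2 in ependymal-like cells.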
